A study of Mus musculus with 3 samples.

Results

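The 34 genes described here encode the enzymes of glycolysis, the carriers that bring glucose in and let lactate out, and the first proteins that act on pyruvate and glycogen. They were taken by symbol from a fixed list, out of 53802 annotated genes. All 34 had counts in every library, and all 34 passed the low-count filter. One symbol, Aldoa, stands for 2 gene identifiers, of which the second had no counts. The cells were Ly6Chi monocytes, the inflammatory monocytes that enter an injured liver, sorted from the livers of 8-week-old male C57BL/6 mice. After a 12 h fast, acetaminophen was injected intraperitoneally at 300 mg/kg, food was returned 2 h later, and the livers were collected at 24 h. The 2 control libraries, numbered 1 and 3, were Commd10fl/fl, which is floxed but undeleted. The single knockout library, numbered 4, was LysMDCommd10, in which LysM-Cre, driven from the Lyz2 locus in myeloid cells, removes Commd10. Whether each library came from 1 mouse or from a pool is not stated in the labels, so p-values reflect variation among libraries that could be technical. No library from an uninjured liver or from Cre-only mice was analysed here.

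Glycolysis splits glucose into pyruvate in the cytosol. Glucose enters through facilitative transporters, is trapped by hexokinases, committed by phosphofructokinase and carried through a trunk of enzymes to pyruvate kinase. Lactate dehydrogenase then reduces pyruvate to lactate, which leaves by monocarboxylate transporters, or the pyruvate carrier and pyruvate dehydrogenase pass it to mitochondria. Most steps have several isozymes, which differ in kinetics, location and regulation. Activated macrophages and cells short of oxygen are known to use the pathway heavily, and many of its genes are textbook targets of the hypoxia-inducible factor HIF-1, which binds the core ACGTG or GCGTG.

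The windows below show the 250 bases upstream of the start site for 4 transporters, because the transporters carried both called differences and the clearest isoform contrast. They come from RefSeq on GRCm38.p6, 5′ to 3′ on the gene's strand, with each ACGTG or GCGTG on either strand in capitals.
Slc2a1 (chr4:119108495-119108744, plus strand): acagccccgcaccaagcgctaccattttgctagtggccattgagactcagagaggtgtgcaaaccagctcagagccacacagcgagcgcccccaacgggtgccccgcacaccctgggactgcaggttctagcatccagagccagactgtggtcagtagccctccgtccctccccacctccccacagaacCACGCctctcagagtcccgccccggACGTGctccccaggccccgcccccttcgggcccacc
Slc2a6 (chr2:27027999-27028248, minus strand): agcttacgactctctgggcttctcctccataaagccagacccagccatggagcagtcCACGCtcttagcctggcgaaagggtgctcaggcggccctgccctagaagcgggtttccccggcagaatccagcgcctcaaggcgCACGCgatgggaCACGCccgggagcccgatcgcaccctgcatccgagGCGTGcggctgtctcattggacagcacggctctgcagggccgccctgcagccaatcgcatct
Slc16a3 (chr11:120948817-120949066, plus strand): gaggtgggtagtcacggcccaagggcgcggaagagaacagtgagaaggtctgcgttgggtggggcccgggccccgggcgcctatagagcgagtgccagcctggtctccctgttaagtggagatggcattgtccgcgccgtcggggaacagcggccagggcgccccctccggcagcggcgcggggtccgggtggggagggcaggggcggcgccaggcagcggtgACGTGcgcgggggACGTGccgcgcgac
Slc16a1 (chr3:104638414-104638663, plus strand): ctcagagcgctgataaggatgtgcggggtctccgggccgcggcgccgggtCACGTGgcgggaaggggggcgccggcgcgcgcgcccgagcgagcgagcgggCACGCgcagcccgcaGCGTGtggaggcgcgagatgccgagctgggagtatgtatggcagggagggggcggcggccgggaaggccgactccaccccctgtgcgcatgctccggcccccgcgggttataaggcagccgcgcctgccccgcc

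Of these, Slc2a1 and Slc16a3 were called higher in the knockout library, and Slc2a6 and Slc16a1 were not. The window of Slc2a1 held 1 ACGTG and 1 GCGTG, that of Slc16a3 held 2 ACGTG, that of Slc2a6 held 4 GCGTG and that of Slc16a1 held 2 of each. The letters therefore occurred in front of transporters of both kinds. The 2 ACGTG matches of Slc16a1 were the 2 strands of 1 palindrome, CACGTG, and so a shared site. RefSeq windows were found for 33 of the 34 genes (all but Slc2a3), 47 windows in all, and 74.5% of them held ACGTG or GCGTG, against 38.6% of all 32851 windows. Their median GC content was 61.6% against 52.4%, and its part in that difference was not tested. A match is a description of letters and not of binding.

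The files held 4814, 8109 and 5152 barcodes in control 1, control 3 and knockout 4, where the study states 4860, 8149 and 5229 cells, with 40092348, 72867668 and 30302932 counts of unique molecular identifiers (UMIs). After the cell filters 4027, 7332 and 4411 cells remained, with median depths of 8769, 8149 and 6872 UMIs. Commd10 stood at 17.7, 10.4 and 8.45 UMIs per 1000000 (CPM), so the knockout library lay just under control 3. The labels do not give the deleted exons, so these 3′ counts are a weak check of the genotype. Summed hepatocyte genes reached 27.1, 79.6 and 33.6 CPM, erythroid genes 43.4, 62.7 and 30.5 CPM and endothelial genes 13.0, 10.2 and 21.7 CPM. Neutrophil genes reached 87.6, 108 and 118 CPM, nearly all from Mmp8 at 86.1, 107 and 116 CPM. T, NK, B, Kupffer and stellate lists stayed under 7 CPM. The T, NK and B genes, with Retnlg, Cxcr2 and Stfa2l1 of the neutrophil list, had also served to leave cells out. Their low levels in kept cells follow in part from that filter and are no check of the sort. The 5 platelet genes summed to 168, 131 and 379 CPM, mostly Pf4, while Itga2b, Gp9 and Treml1 stayed under 0.4 CPM. The 6 monocyte genes, which include Lyz2 that carries the Cre, summed to 17995, 14284 and 9188 CPM. Lyz2 alone stood at 15363, 11556 and 6453 CPM, so the difference in the sum lay mainly in that gene. Ly6c2 stood at 484, 610 and 591 CPM, Ccr2 at 896, 952 and 867 CPM and Csf1r at 654, 615 and 571 CPM. Fcgr1 stood at 275, 257 and 312 CPM and Itgam at 324, 294 and 395 CPM. The part of depth and of these marker levels in the results was not tested. Control 1 shared 26 barcodes with control 3 and 8 with knockout 4, and control 3 shared 24 with knockout 4.

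Of the 34 genes, 2 rose in the knockout library over all kept cells: Slc2a1, the basal glucose transporter GLUT1, and Slc16a3, the lactate exporter MCT4. Slc2a1 (ENSMUSG00000028645, chromosome 4, 119108711 to 119137983) reached 41.6 CPM in the first control, 52.0 in the other and 145 in the knockout, a log2 difference of 1.63 ± 0.17 (SE, 2 control libraries against 1), with an adjusted p of 0.0125 by edgeR's quasi-likelihood test. Slc16a3 (ENSMUSG00000025161, chromosome 11, 120948480 to 120960868) stood at 160, 165 and 408 CPM, a log2 fold change of 1.33 ± 0.15 with an adjusted p of 0.0139. For both genes the gap from the knockout library to the nearer control was far wider than the gap between the controls. These 2 of 34 compare with 41 of 14755 genes called higher (0.278%) and 2 called lower (0.0136%), and none of the 34 was called lower. With 1 residual degree of freedom the knockout library is assumed to vary like the controls.

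The other 32 genes did not pass. As a description, 24 of the 34 lay above both controls (36.1% of all genes tested did) and 6 lay below both (36.9%). The median log2 fold change was 0.56, against -0.01 over all genes tested, and 0.43 against control 1 and 0.59 against control 3 taken singly. The genes were not level between the controls either: control 3 lay below control 1 by a median log2 difference of -0.12. DESeq2 called 9 of 33 higher (0.757% of its genes), namely Slc2a1, Slc16a3, Tpi1, Pgk1, Pgam1, Ldha, Pfkl, Pfkfb3 and Gys1. EdgeR without the low-count filter called 14 (1.16%). With all deposited barcodes (0.074%) and with cells thinned to 3000 UMIs (0.131%) none was called by edgeR, though 20 and 19 had an unadjusted p under 0.05. In the main edgeR fit 21 of the 34 genes and 1299 of all 14755 genes had an unadjusted p under 0.05. Counts at an unadjusted p from other fits, here and below, come without that all-gene count. The percentages beside them refer to the adjusted p. Slc2a1 and Slc16a3 both had an edgeR adjusted p of 0.0507 with all deposited barcodes, and both had 0.0539 with thinned cells.

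**Figure D1:**
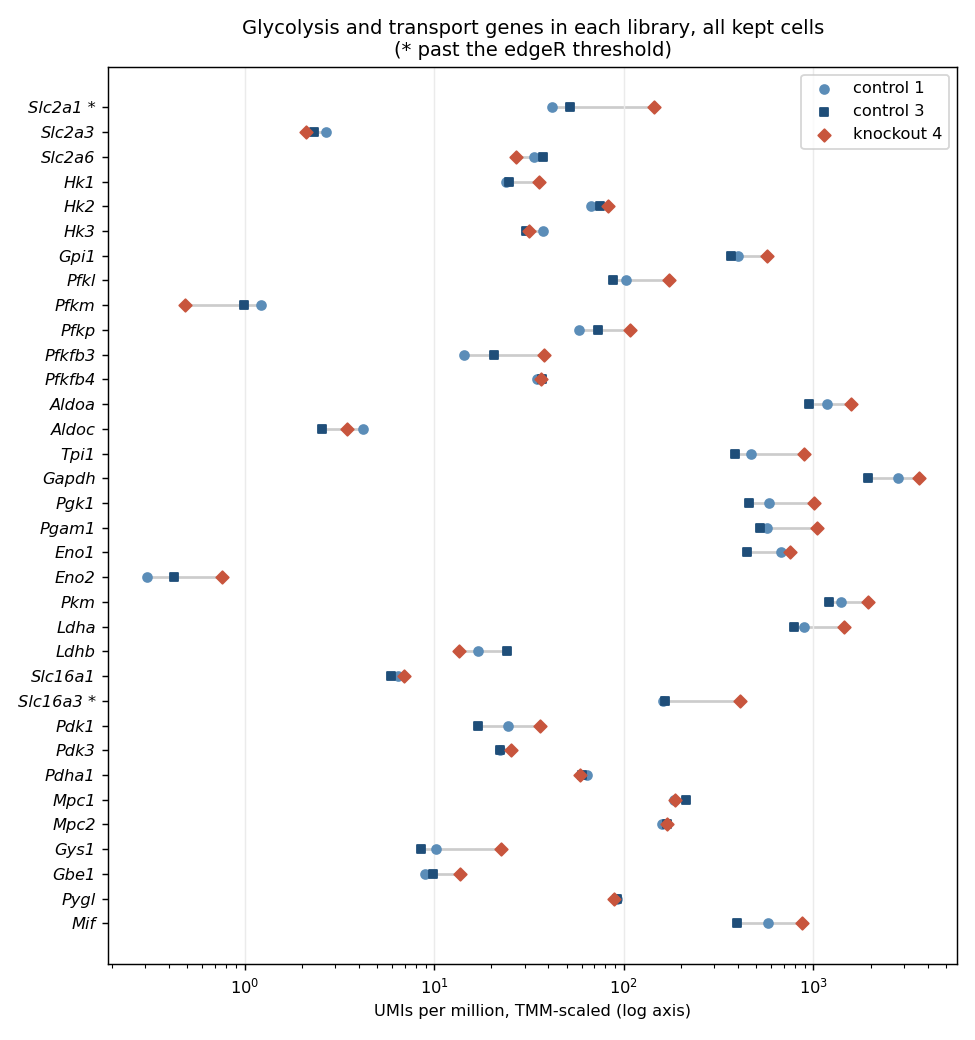
Level of each of the 34 genes in each library (CPM on a log axis, all kept cells, controls in blue and knockout in red). Slc2a1 and Slc16a3, marked with an asterisk, are the 2 past the threshold, and their knockout values of 145 and 408 CPM stand clear of both controls.

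Among glucose transporters, the knockout library carried more Slc2a1 while its other main transporter gene, Slc2a6, which encodes a lysosomal hexose carrier, was no higher. Slc2a6 stood at 33.7, 37.3 and 26.9 CPM (-0.40 ± 0.16, edgeR adjusted p = 0.531). Slc2a3, the high-affinity transporter GLUT3, was scarce at 2.70, 2.33 and 2.12 CPM. Since 3′ libraries give 1 tag per transcript, shares of a step were computed directly from UMIs. Slc2a1 took 47.0% and 52.3% of glucose transporter UMIs in the controls and 80.1% in the knockout library, with exact Clopper-Pearson 95% intervals of 45.3 to 48.7, 51.1 to 53.5 and 79.0 to 81.2. Slc2a6 took 38.1%, 37.5% and 14.9%. Slc2a8, a member of the same family outside the list, took 5.96%, 3.40% and 1.21%. The 3 libraries allow no permutation p below 0.333, so shares are given without a test, and their intervals cover counting error only.

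Hk2 led the entry step in every library, while the order of Hk1 and Hk3 was not the same in all. Hk2, the inducible hexokinase bound to mitochondria, stood at 67.1, 74.8 and 83.0 CPM and took 52.3%, 57.5% and 55.2% of hexokinase UMIs. The knockout share lay between the controls. Hk1, the constitutive isozyme, stood at 24.0, 24.9 and 35.9 CPM and took 18.7%, 19.1% and 23.8%. Hk3, a myeloid hexokinase, stood at 37.3, 30.4 and 31.6 CPM and took 29.1%, 23.4% and 21%, above Hk1 in both controls and below it in the knockout library. Log2 fold changes were 0.23 ± 0.16, 0.55 ± 0.15 and -0.10 ± 0.18 for Hk2, Hk1 and Hk3, and none passed.

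Phosphofructokinase is the committed step. Its liver-type gene Pfkl led at 102, 87.7 and 172 CPM, ahead of the platelet-type Pfkp at 58.1, 73.4 and 108 CPM. Muscle-type Pfkm was near absent at 1.22, 0.99 and 0.49 CPM. Pfkl took 63.2%, 54.1% and 61.4% of the step, so the knockout library again lay between the controls although both genes stood higher in it. Pfkfb3 and Pfkfb4 make fructose 2,6-bisphosphate, the activator of phosphofructokinase. Pfkfb3 stood at 14.3, 20.8 and 37.8 CPM and Pfkfb4 at 35.0, 36.9 and 36.4 CPM. Pfkfb3 thereby went from 28.2% and 35.2% of the pair's step in the controls to 50.2% in the knockout library. Pfkfb4 went from 69.2% and 62.6% to 48.4%. The log2 fold changes were 1.10 ± 0.22 (edgeR adjusted p = 0.119) and 0.02 ± 0.15 (adjusted p = 0.983), and the difference between them was not tested.

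The trunk from glucose 6-phosphate to pyruvate held the most abundant genes, each dominated by 1 isozyme. Gapdh, the oxidising step, stood at 2793, 1948 and 3594 CPM and made up 26.1%, 22.4% and 23.4% of all UMIs of the 34 genes. Aldoa, the aldolase, stood at 1179, 949 and 1568 CPM and took over 99.6% of its step, with Aldoc between 2.56 and 4.20 CPM. Pkm, pyruvate kinase, stood at 1393, 1213 and 1927 CPM. These 3 genes had log2 fold changes of 0.60 ± 0.22, 0.56 ± 0.18 and 0.56 ± 0.16. The 3 enzymes with the largest differences in the trunk were Tpi1, Pgk1 and Pgam1. Triose phosphate isomerase, Tpi1, stood at 466, 384 and 893 CPM (1.07 ± 0.17, edgeR adjusted p = 0.0605). Phosphoglycerate kinase, Pgk1, which makes the first ATP, stood at 584, 455 and 1006 CPM (0.95 ± 0.18, adjusted p = 0.109). Phosphoglycerate mutase, Pgam1, stood at 570, 523 and 1048 CPM (0.94 ± 0.15, adjusted p = 0.0637). In all 3 the knockout library lay above both controls, and none passed. Gpi1, the isomerase, stood at 400, 369 and 568 CPM (0.56 ± 0.15).

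Enolase differed between the controls about as much as between them and the knockout library. Eno1 stood at 670, 444 and 749 CPM, 0.43 ± 0.23 on the log2 scale. Against control 1 alone the difference was 0.15. Eno1 took 96.2%, 96.7% and 98.0% of its step, and Eno3, the muscle enolase and no member of the list, took nearly all the rest. Neuronal Eno2 stayed under 1 CPM in every library.

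At the lactate end the knockout library carried more of the exporter, while Ldhb and the importers took smaller shares of their steps. Ldha, which favours lactate formation, stood at 886, 789 and 1454 CPM (0.80 ± 0.16, edgeR adjusted p = 0.117). Ldhb, which favours the return to pyruvate, stood at 16.9, 24.3 and 13.4 CPM (-0.62 ± 0.24, adjusted p = 0.507) and took 1.87%, 2.98% and 0.92% of the step. Slc16a3 took 90.3%, 91.0% and 96.4% of lactate transporter UMIs. Slc16a1, the importer MCT1, stood at 6.47, 5.95 and 6.94 CPM, and Slc16a7 took 6.05%, 5.69% and 1.96%. Mif, a cytokine often listed among HIF-1 targets, stood at 575, 395 and 870 CPM (0.84 ± 0.22).

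At the mitochondrial entry of pyruvate, the carrier and Pdha1 lay near their control levels. Mpc1 and Mpc2, the 2 subunits of the pyruvate carrier, stood at 183, 212 and 185 CPM and at 158, 168 and 169 CPM, within log2 differences of -0.09 ± 0.17 and 0.05 ± 0.16. Pdha1, a subunit of pyruvate dehydrogenase, stood at 64.1, 60.2 and 59.0 CPM. Pdk1, a kinase that switches that enzyme off, stood at 24.6, 17.0 and 36.0 CPM (0.79 ± 0.22) and took 50.4%, 41.5% and 57.3% of the kinases' UMIs. Pdk3 stood at 22.1, 22.2 and 25.5 CPM. None of these 5 passed.

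Of the glycogen genes, Gys1, glycogen synthase, came nearest to the threshold at 10.2, 8.49 and 22.4 CPM (1.26 ± 0.19, edgeR adjusted p = 0.0514). Gbe1, the branching enzyme, stood at 8.94, 9.82 and 13.7 CPM. Pygl, the phosphorylase that breaks glycogen down, was level at 91.7, 92.2 and 88.5 CPM and took 85.9%, 88.7% and 89.2% of phosphorylase UMIs. Of 77 further pathway genes, 55 were tested, and 1 was called higher (0.278% of all genes) and none lower (0.0136%). That gene was Pgm2, a phosphoglucomutase that joins glycogen to glycolysis, at 15.3, 12.9 and 33.0 CPM (1.23 ± 0.17, adjusted p = 0.0395). These 55 genes, which also cover glycogen, pentose phosphate, fructose, galactose and reverse steps and minor isozymes, did not lie higher as a set. Of them 14 lay above both controls (36.1% of all genes tested did) and 30 below both (36.9%), with a median log2 fold change of -0.16. The 8 pentose phosphate genes, a side path for NADPH, had a median of -0.05, and Bsg, the chaperone of the lactate transporters, stood at 321, 280 and 461 CPM.

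**Figure D2:**
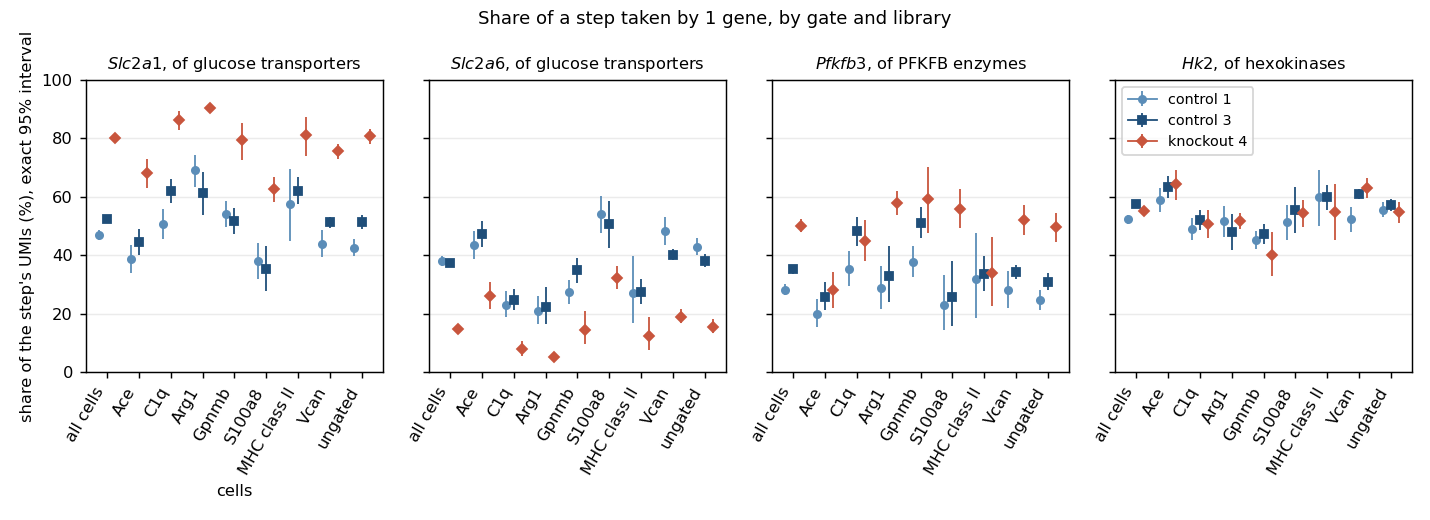
Share of a step's UMIs taken by Slc2a1, Slc2a6, Pfkfb3 and Hk2 in all kept cells and in each gate (points are libraries, bars are exact 95% intervals for counting error). The knockout share of Slc2a1 lies above both controls in every gate, and the interval of Hk2 overlaps that of a control in each.

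Cells were then gated on genes outside the list, taking each cell into the first gate it met: Ace (5 UMIs of Ace, Spn and Treml4 per 10000), C1q (20, C1qa to C1qc), Arg1 (10), Gpnmb (10, with Lpl), S100a8 (20, with S100a9), MHC class II (100, Cd74 and class II genes), Vcan (3) and the ungated rest. The libraries differed in these proportions. Cells of the Arg1 gate made up 6.26% and 2.14% of the controls and 22.7% of the knockout library. Those of the Gpnmb gate made up 18.0%, 8.50% and 5.51%, and those of the Vcan gate 10.6%, 32.6% and 16.6%. Per cell, the 34 genes together took a median of 95.3 and 72.2 UMIs per 10000 in the controls and 127 in the knockout library. The spread was also wider there: the upper quartile was 191 against 128 and 101, while the 5th percentiles were 46.1, 36.4 and 46.5. In the Arg1 gate the medians were 130, 127 and 193, and in the Ace gate 73.3, 59.0 and 80.7. Leaving out the Arg1 gate, edgeR still called Slc2a1 and Slc16a3 (0.123% of all genes were called higher), with log2 fold changes of 1.46 and 1.15 and a median over the 34 genes of 0.40.

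**Figure D3:**
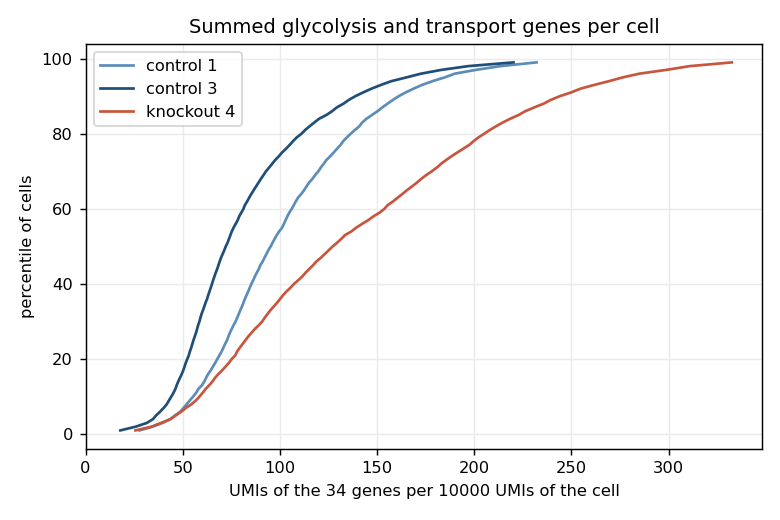
Summed UMIs of the 34 genes per 10000 UMIs of a cell, drawn as the percentile of cells at or below each value in each library. The knockout curve leaves the controls from the lower quartile upward, with a median of 127 against 95.3 and 72.2.

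Within gates, Slc2a1 and Slc16a3 were higher than both controls in all 8 groups, and edgeR called them in 6 and 7. Slc2a1 had log2 fold changes from 1.07 to 1.58 and Slc16a3 from 0.82 to 1.46. The share of Slc2a1 among glucose transporters was higher in the knockout library in every gate, from 62.5% against 37.9% and 35.3% in the S100a8 gate to 90.2% against 69.1% and 61.2% in the Arg1 gate. Tpi1, Pgk1, Pgam1, Pfkl, Pfkp, Gpi1, Aldoa, Gapdh, Pkm, Ldha, Pdk1, Gys1 and Mif also lay above both controls in all 8 groups, and Ldhb lay below both in all 8. Over all kept cells, 36.1% of all genes tested lay above both controls and 36.9% below both. How many of all genes do so in all 8 groups was not counted, so how unusual this is cannot be told. These cells come from the same 3 libraries, so the gates repeat the comparison and do not replicate it. Calls per gate also depend on how far edgeR pools the spread, with prior degrees of freedom from 5.99 to 99.5 and infinite in the S100a8 gate.

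The Arg1 gate, cells with the arginase of wound-healing macrophages, held more calls than any other group: 17 of 31 tested genes were called higher (3.92% of all genes) and 1 lower (3.58%). In order of p, the first 12 were Slc16a3, Slc2a1, Pgam1, Tpi1, Pgk1, Pfkfb3, Ldha, Gys1, Pfkl, Mif, Gapdh and Pfkp. Slc2a1 stood at 79.9, 60.6 and 212 CPM (1.58 ± 0.16, edgeR adjusted p = 5.88e-10). Gys1 stood at 14.7, 11.1 and 37.5 CPM (1.51 ± 0.25, adjusted p = 2.79e-05) and Pfkfb3 at 17.9, 18.4 and 50.5 CPM (1.48 ± 0.22, adjusted p = 3.26e-06). The gene called lower was Slc2a6, at 24.3, 22.3 and 12.0 CPM (-0.96 ± 0.29, adjusted p = 0.0285). In this gate the median log2 difference of control 3 from control 1 over the genes was -0.08. That median is signed and does not show how close single genes were, such as Slc2a1 at 79.9 and 60.6 CPM. Arg1 itself stood at 3250, 3041 and 5248 CPM within the gate, so the cells were not matched for the gating gene. The platelet list summed to 397, 606 and 735 CPM in the gate, and its part was not tested. With the gate's rate doubled, 4 of the genes were called and so were fewer of all genes (0.242%). The knockout effect in this gate minus that in the other cells, tested as an interaction, was called for none of the 34 genes by edgeR (1.08% of all genes, and 9 of the 34 at an unadjusted p under 0.05). Its estimate was 0.11 ± 0.15 for Slc2a1 and 0.26 ± 0.12 for Slc16a3.

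In the S100a8 gate, cells with the alarmin genes S100a8 and S100a9, 8 of 29 genes were called higher (1.5% of all genes). Pfkfb3 led, at 10.7, 11.3 and 47.2 CPM (2.09 ± 0.31, edgeR adjusted p = 3.54e-09). Its share of the step was 22.9% and 25.8% in the controls and 56.0% in the knockout library. Slc2a1, Slc16a3, Tpi1, Ldha, Mif, Pgam1 and Pgk1 followed. Slc2a6 was level here on average, at 75.8, 52.6 and 65.1 CPM. Neutrophil markers, nearly all Mmp8 over all kept cells, summed to 225, 289 and 320 CPM in this gate. Erythroid markers summed to 0, 2.00 and 273 CPM, and the part of both lists was not tested.

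In the MHC class II gate, cells with antigen-presentation genes, 6 of 30 were called higher (0.473% of all genes): Slc16a3, Slc2a1, Tpi1, Ldha, Pgk1 and Pgam1. In the C1q gate, cells with complement genes of mature macrophages, 4 of 33 were called (0.261%): Slc16a3 at 111, 129 and 331 CPM, Slc2a1, Pgam1 and Tpi1. The platelet list, mainly Pf4, summed to 467, 421 and 1226 CPM in the C1q gate, and its part was not tested. In the Vcan gate, cells with a gene of recently arrived monocytes, 3 of 31 were called (0.605%): Slc2a1, Slc16a3 and Tpi1. Erythroid markers summed to 412, 2.30 and 3.67 CPM in the Vcan gate, and their part was not tested. Among ungated cells 2 of 33 were called (0.193%), Slc2a1 and Slc16a3. In the Gpnmb gate, cells with genes of lipid-handling macrophages, 1 of 32 was called (0.0446%), Slc16a3. In the Ace gate, cells with genes of patrolling monocytes, none of 31 was called by edgeR (0.0% of all genes). An unadjusted p under 0.05 was found for 14, a count without its share of all genes. These counts moved with the gates' rates, as did the share of all genes called, given in parentheses. With rates halved 2 genes were called in the Ace gate (0.214%), 1 in the C1q gate (0.0959%), 1 in the Vcan gate (0.125%) and 6 among ungated cells (0.364%). None was then called by edgeR in the Gpnmb gate (0.00865%) or the MHC class II gate (0.0%), where 15 and 12 were higher at an unadjusted p under 0.05. With rates doubled 1 was called in the Ace gate (0.17%), 2 in the Gpnmb gate (0.418%) and 1 in the Vcan gate (0.104%).

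**Figure D4:**
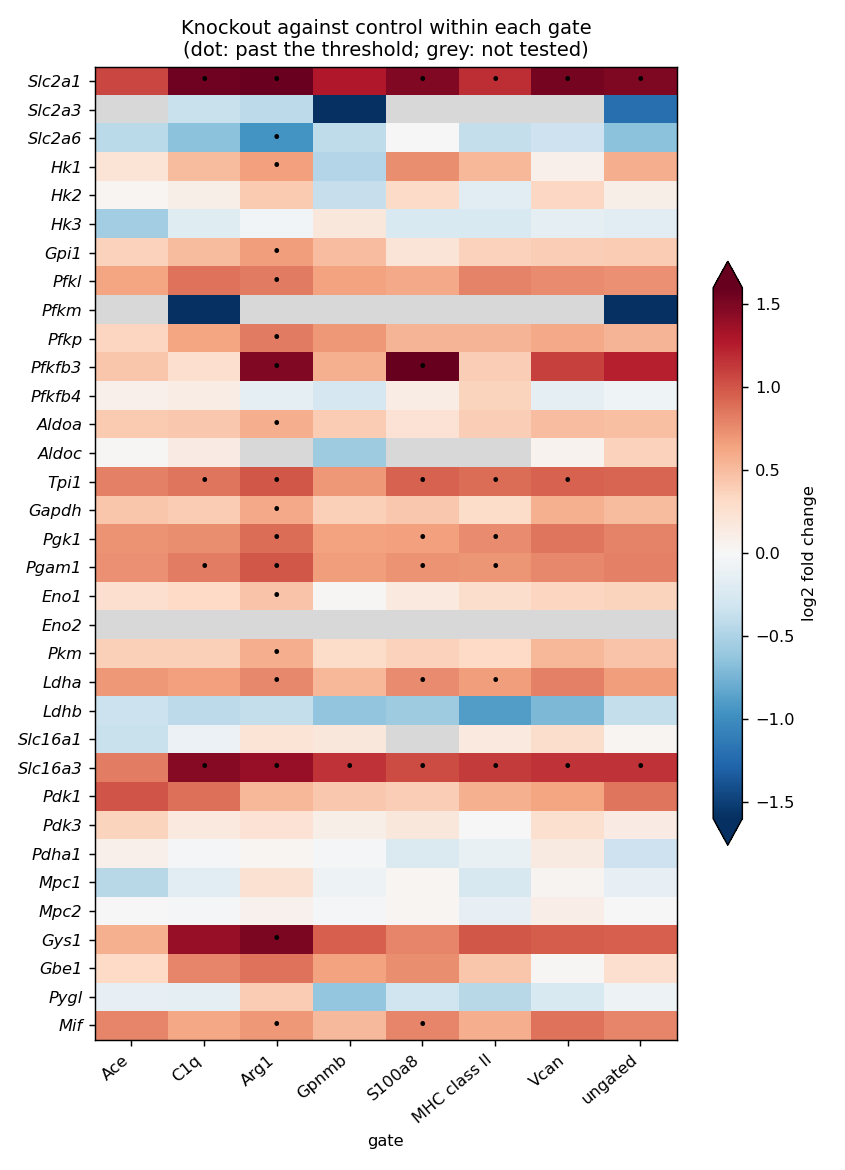
Log2 fold change of the knockout library against the controls for each gene (rows) within each gate (columns), with a dot where edgeR's adjusted p passed and grey where a gene was not tested. Slc2a1 and Slc16a3 are red across all 8 gates, and Ldhb is blue across all 8.

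Each gate was then set against the other cells of the same library, with the library as a block. This gave 1 average difference per gate over the 3 libraries. Whether it differed between controls and knockout was tested for the Arg1 gate only, by the interaction above. The gates were chosen on other genes, and the 3 libraries are the replicates. In the Arg1 gate 18 of 34 genes were higher than in the other cells (7.67% of all genes) and 4 lower (8.73%). The whole trunk was higher. Pgk1 stood at 903, 802 and 1589 CPM in the gate against 563, 444 and 829 CPM outside it (0.83 ± 0.06, edgeR adjusted p = 5.2e-06). Tpi1 differed by 0.88 ± 0.07, Mif by 0.90 ± 0.07, Ldha by 0.64 ± 0.06 and Slc16a3 by 0.59 ± 0.08. Ldhb (-0.96 ± 0.15), Slc2a6 (-0.91 ± 0.16), Mpc1 (-0.50 ± 0.09) and Pdha1 (-0.31 ± 0.09) were lower. Among the further pathway genes 3 of 50 were higher, Pgm2, Bsg and Galk1, and 9 were lower, among them the pentose phosphate enzymes G6pdx, Pgls, Taldo1 and Tkt and glycogenin, Gyg. Without the library block the spread between libraries enters the error, and none of the 34 was called by edgeR (1.39% of all genes higher and 1.26% lower), while 13 were higher and 4 lower at an unadjusted p under 0.05.

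The Ace gate stood at the other end, with 4 of 33 genes higher (10.8% of all genes) and 16 lower (10.4%). Mif (-0.67 ± 0.06), Tpi1 (-0.59 ± 0.07), Pkm (-0.55 ± 0.06), Pgam1 (-0.54 ± 0.06) and Gapdh (-0.50 ± 0.05) were lower in all 3 libraries. Ldhb, Pfkfb4, Pdha1 and Slc2a6 were higher, by 0.58 ± 0.12, 0.55 ± 0.08, 0.41 ± 0.07 and 0.35 ± 0.08. Eno1 remained the main enolase there, at 84.7%, 86.0% and 87.0% of the step, but Eno3 took a larger part than elsewhere. Eno3 stood at 99.0, 60.1 and 83.0 CPM in the gate against 17.4, 10.9 and 6.48 CPM outside it (2.78 ± 0.17, edgeR adjusted p = 8.3e-07). It took 15.3%, 13.9% and 13.0% of enolase UMIs in the Ace gate, and at most 4.14% in a library of any other gate. Without the block 1 of the 33 was called higher (2.34% of all genes) and none lower (1.19%, and 4 at an unadjusted p under 0.05). Without control 1, 2 were called higher (5.43%), and without knockout 4, 10 lower (6.13%).

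The S100a8 and Vcan gates shared a pattern of more glycogen phosphorylase and pyruvate carrier with less of Tpi1, Pgk1 and Aldoa in the trunk. In the S100a8 gate 4 of 33 genes were higher (10.5%) and 7 lower (10.7%). Pygl stood at 187, 189 and 153 CPM against 87.6, 89.1 and 80.8 CPM outside (1.03 ± 0.07, edgeR adjusted p = 2.1e-10), and Slc2a6 (1.14 ± 0.14), Mpc1 (0.56 ± 0.07) and Mpc2 (0.44 ± 0.07) were higher too. Mif (-1.07 ± 0.06), Tpi1 (-0.57 ± 0.07) and Ldha (-0.57 ± 0.06) were lower. Gyg, the primer of glycogen, was higher by 1.17 ± 0.08. In the Vcan gate 8 of 34 were higher (9.45%) and 7 lower (9.99%). Pygl, Slc2a6, Mpc1 and Gyg were higher by 0.56 ± 0.06, 0.69 ± 0.09, 0.38 ± 0.05 and 0.57 ± 0.06, and Slc2a1 and Slc16a3 by 0.27 ± 0.05 and 0.24 ± 0.06. Mif differed by -0.66 ± 0.05. Without the block edgeR called none lower in the S100a8 gate (2.71% of all genes), with 2 at an unadjusted p under 0.05, and none in the Vcan gate in either direction (0.479% higher and 0.972% lower), with 3 higher and 2 lower unadjusted. Without knockout 4, 4 were called lower in the S100a8 gate (6.92%).

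The C1q and Gpnmb gates had the reverse for several of these genes. In the C1q gate 6 of 34 genes were higher (15.9%) and 11 lower (14.5%). Slc2a6 stood at 14.9, 19.6 and 11 CPM against 36.9, 39.1 and 29.0 CPM outside (-1.18 ± 0.10, edgeR adjusted p = 3.2e-07), and Pygl (-0.79 ± 0.07) and Slc16a3 (-0.42 ± 0.06) were lower. Slc16a1, the importer, was higher at 9.73, 11.3 and 9.88 CPM against 5.93, 5.28 and 6.48 CPM (0.85 ± 0.15). Without the block 1 was called higher (3.0% of all genes) and 3 lower (2.71%), and without control 3, 3 were called higher (9.98%). In the Gpnmb gate 6 of 33 were higher (9.46%) and 10 lower (11.8%). Hk3 stood at 46.6, 45.7 and 51.9 CPM against 35.9, 29.3 and 30.2 CPM (0.55 ± 0.09), and Pygl (-0.69 ± 0.09), Ldhb (-0.71 ± 0.12) and Pfkfb4 (-0.56 ± 0.09) were lower. Without the block edgeR called none of them (0.546% of all genes higher and 0.593% lower), with 2 higher and 7 lower at an unadjusted p under 0.05. The higher count was 2 without control 3 (3.51%) and 12 without knockout 4 (10.4%). With rates halved it was 11 (8.61%) with 6 lower (9.3%), and with rates doubled it was 2 (8.7%). In the MHC class II gate none of 34 was called higher by edgeR (2.69%), with 1 at an unadjusted p under 0.05, and 10 were lower (3.22%), with Pygl at -1.0 ± 0.10 and Pgk1 at -0.38 ± 0.07. The lower count there was 1 without the block (0.104%), 3 without control 1 (2.51%), 6 without knockout 4 (2.85%) and 4 with rates halved (1.88%). For the higher calls of the Ace, C1q and S100a8 gates the share of the 34 genes was close to that of all genes.

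**Figure D5:**
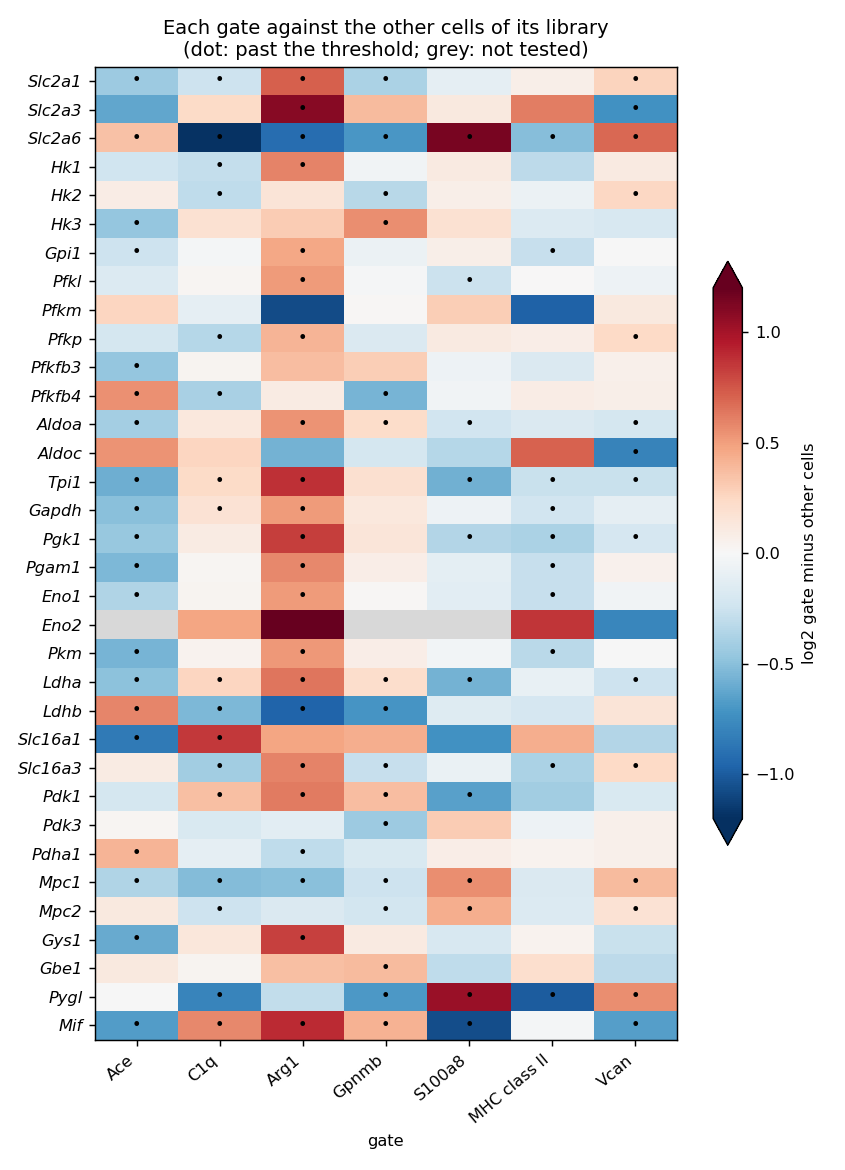
Log2 difference of each gene between a gate and the other cells of the same library, fitted over 3 libraries, with a dot where edgeR's adjusted p passed. The Arg1 column is red along the trunk, the Ace column is blue there, and Slc2a6 and Pygl are red in the S100a8 and Vcan columns and blue in the C1q and Gpnmb columns.

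Of the genes, 5 share sequence of at least 90 bases at 95% identity, within the last 400 bases of their longest coding transcript, with other annotated genes, where reads can be split or lost. Gapdh had 105 such partners, nearly all pseudogenes, with counts of 0.322%, 0.455% and 0.293% of its own. Eno1 had 1, Eno1b, at 0.515%, 0.424% and 0.485%, and Mif and Ldhb had pseudogenes at up to 1.70% and 0.510%. Gpi1 shared a stretch with Adh5 and Mrpl27, which carry counts of their own, so its level is less certain. For Slc2a1, Slc16a3 and the remaining genes no such partner was found. The search covered only those 400 bases of 1 transcript per gene against annotated transcripts, so reads from elsewhere were not checked.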

How the data were processed

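Single-cell 3′ libraries (10x Genomics) of 3 samples were used as deposited. The deposited counts are unnormalized UMI counts per gene and barcode, made with Cell Ranger 3.0.2, bcl2fastq and GRCm38 per the submitters' processing notes, and how reads matching several genes were counted is not stated there. The 34 genes, the further pathway genes and the gates were chosen with earlier results of these data known. Barcodes needed 500 or more genes and no more than 10% mitochondrial UMIs, and cells with 2 or more lymphoid or 3 or more neutrophil marker UMIs were left out. No doublet caller was run; cells over 2 times the median depth were left out in an alternative. Counts were summed per library, or per library and gate, and tested with edgeR 4.0.16 (TMM, filterByExpr, two-sided quasi-likelihood F test, Benjamini-Hochberg over all genes tested, threshold 0.05), fitted on all genes. SE is the log2 fold change divided by the root of F. DESeq2 1.42.0 was an alternative and gave no adjusted p for some genes. Depth ran from 30302932 to 72867668 UMIs a library. On simulated counts with 200 of 14755 genes changed in the knockout against control comparison, 74.6% of log2 changes of 1 and 100% of 2 were recovered, with 4.81% false calls. The changed genes were drawn from those over 10 CPM, so recovery at lower levels was not covered. All simulated libraries were given the same spread, so a knockout library that varies otherwise was not covered either. In gate comparisons at most 12 genes a gate were named in order of p; Slc2a6, and genes named beyond these, were chosen after their values were seen. Sequences are RefSeq's; gene positions and 3′ ends are from GENCODE M21, and the latter were compared with blastn.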

Additional observations from a re-analysis of the deposited data

Results flagged for a closer look

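For 8 genes at 10 CPM or more in all 6 sums compared, the knockout library lay above both controls in one gate and below both in another. These differences between gates were not tested. The values are the highest and lowest of each gene over the groups. How many of all genes meet the same rule was not counted, while over all kept cells 36.1% lay above both controls and 36.9% below both. The 8 genes are therefore listed as a description only. For Hk1 the log2 fold change was 0.75 in the S100a8 gate and -0.47 in the Gpnmb gate, apart by 1.22. For Hk2 the log2 fold change was 0.42 in the Arg1 gate and -0.37 in the Gpnmb gate, apart by 0.79. For Hk3 the log2 fold change was 0.19 in the Gpnmb gate and -0.56 in the Ace gate, apart by 0.75. For Pfkfb4 the log2 fold change was 0.36 in the MHC class II gate and -0.26 in the Gpnmb gate, apart by 0.62. For Pdha1 the log2 fold change was 0.15 in the Vcan gate and -0.33 in ungated cells, apart by 0.47. For Mpc1 the log2 fold change was 0.24 in the Arg1 gate and -0.44 in the Ace gate, apart by 0.68. For Mpc2 the log2 fold change was 0.11 in the Vcan gate and -0.13 in the MHC class II gate, apart by 0.24. For Pygl the log2 fold change was 0.40 in the Arg1 gate and -0.61 in the Gpnmb gate, apart by 1.01.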

How the results depend on the processing

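Of the 34 genes, 29 kept the sign of their log2 fold change in 11 alternatives. Pfkfb4, near 0, turned to -0.028 with library totals and to -0.0035 without the low-count filter, and Aldoc to -9e-05 with library totals and -0.033 without the Arg1 gate. The number called higher in the knockout library was 9 with DESeq2, 14 without the filter, 0 with all deposited barcodes and 0 with cells thinned to 3000 UMIs. It stayed at 2 with library totals, without cells of high UMI count, without the Arg1 gate and without barcodes shared between libraries, the last added after seeing the data. The median log2 fold change was 0.40 without the Arg1 gate and 0.43 to 0.59 when either control was left out. Scaled by library totals it was 0.511, and 0.404 with the gates weighted alike. Without the Arg1 gate the shares of Slc2a6, Hk1 and Eno3 differed by -19.8, 3.58 and -1.13 percentage points. Leaving out a control within a gate was not run.

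In the gate fits below the share of all genes called moved too, from 0.0% to 0.418% within gates and from 0.104% to 10.4% for gates against other cells. Within gates, halving the rates gave 2 genes called higher in Ace, 1 in C1q, 0 in Gpnmb, 0 in MHC class II, 1 in Vcan and 6 in ungated cells, and doubling gave 1 in Ace, 4 in Arg1, 2 in Gpnmb and 1 in Vcan. For gates against other cells, halving gave 11 higher and 6 lower in Gpnmb and 4 lower in MHC class II, and doubling gave 2 higher in Gpnmb. With no library block the numbers were 1 higher and 0 lower in Ace, 1 and 3 in C1q, 0 and 0 in Arg1, Gpnmb and Vcan, 0 lower in S100a8 and 1 lower in MHC class II. Leaving out a library gave 2 to 4 higher and 10 to 17 lower in Ace, 3 to 9 higher in C1q, 2 to 12 higher in Gpnmb, 4 to 9 lower in S100a8 and 3 to 10 lower in MHC class II. The causes were not tested. No paired analysis of knockout against control was possible because the groups share no replicate number. Depth limits Slc2a3, Pfkm, Eno2 and Aldoc, which lay under 5 CPM.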
